A study of Mus musculus with 12 samples.

Results

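The 9 genes described here encode the heavy chains of sarcomeric myosin, the motor protein of the thick filament in skeletal and heart muscle: Myh1, Myh2, Myh3, Myh4, Myh6, Myh7, Myh7b, Myh8 and Myh13. They were taken as a gene family, by symbol, from the 55413 genes (21938 protein-coding) of the GENCODE M21 annotation of mm10, and all 9 were found there. The peaks at their promoters, across their bodies and between the linked genes were read from 8 peak lists made by CUT&RUN, a method in which an antibody tethers a nuclease to chromatin and the cut fragments are sequenced. A promoter is the 1 kb on either side of any annotated transcript start, and it is called marked when a peak overlaps it by at least 1 bp.

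The cells were C2C12, an established mouse myoblast line, grown for differentiation in medium with 2% horse serum. The 4 states are undifferentiated cells at day 0, cells at day 1 of differentiation, and at day 5 the fused myotubes and the unfused reserve cells, parted from each other by mild trypsin. Each state has 1 library with an antibody against MBD2, a reader of methylated CpG that belongs to the NuRD complex, and 1 against H3K4me3, the histone mark found at the starts of active genes. The 4 IgG control libraries were not analysed here. All states come from the same line, and no genotype or drug differs between them.

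The family is a standard system for the study of isoform choice. A muscle fibre contracts at a speed set largely by its heavy chain, and vertebrates switch from an embryonic to a perinatal and then to adult chains as muscle matures. In the mouse, Myh3 (embryonic), Myh2 (fast, type IIa), Myh1 (fast, type IIx), Myh4 (fast, type IIb), Myh8 (perinatal) and Myh13 (extraocular and laryngeal) lie in that order on chromosome 11. Myh6 and Myh7, the alpha and beta chains of the heart, lie in tandem on chromosome 14, and Myh7 is also the chain of slow skeletal fibres. Myh7b, an ancient relative on chromosome 2, hosts the microRNA gene Mir499 in an intron.

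The promoters carry the finding that members lying side by side differed in their marks, so the sequences of 7 of them are shown first. Each is 300 bases from RefSeq (build GRCm38.p6, the assembly of mm10), from 250 bases before to 50 after a RefSeq start, written 5′ to 3′ on the gene's strand, and all 9 members were found in that table. The 3 adult fast genes come first, Myh2 (chr11:67170777-67171076), Myh1 (chr11:67199852-67200151) and Myh4 (chr11:67237562-67237861), all on the plus strand. Capitals mark the longest run of bases common to all 3.
Myh2: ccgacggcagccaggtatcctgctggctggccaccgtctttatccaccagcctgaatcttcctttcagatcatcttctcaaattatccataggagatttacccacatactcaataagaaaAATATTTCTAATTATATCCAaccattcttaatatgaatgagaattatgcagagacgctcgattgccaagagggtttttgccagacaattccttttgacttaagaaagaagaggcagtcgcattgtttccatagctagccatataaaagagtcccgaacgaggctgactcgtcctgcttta
Myh1: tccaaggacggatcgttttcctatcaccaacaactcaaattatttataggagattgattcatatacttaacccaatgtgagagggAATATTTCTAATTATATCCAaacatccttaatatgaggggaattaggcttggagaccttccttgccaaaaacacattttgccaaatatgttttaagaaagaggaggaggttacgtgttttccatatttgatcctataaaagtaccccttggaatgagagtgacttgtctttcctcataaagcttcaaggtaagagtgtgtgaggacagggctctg
Myh4: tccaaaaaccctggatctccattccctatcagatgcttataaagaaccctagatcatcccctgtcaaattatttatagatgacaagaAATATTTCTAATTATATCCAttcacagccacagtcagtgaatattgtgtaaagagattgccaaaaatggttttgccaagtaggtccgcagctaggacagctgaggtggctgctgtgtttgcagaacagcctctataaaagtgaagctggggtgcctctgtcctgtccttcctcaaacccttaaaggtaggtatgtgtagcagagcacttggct
The run is 20 bases long, begins 130, 165 and 163 bases before the RefSeq start in Myh2, Myh1 and Myh4, and was found in 3 of the 32851 full-length promoters of the table, those of these 3 genes. Myh1 and Myh4 carried an H3K4me3 peak in myotubes and Myh2 did not, so the run was present in marked and unmarked members alike.

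The other 4 promoters belong to members whose H3K4me3 state differed between libraries: Myh3 (chr11:67078050-67078349, plus strand), Myh8 (chr11:67276874-67277173, plus strand), Myh7 (chr14:54994577-54994876, minus strand) and Myh7b (chr2:155610993-155611292, plus strand). Capitals mark CANNTG, the E-box letters that MyoD-type factors can bind.
Myh3: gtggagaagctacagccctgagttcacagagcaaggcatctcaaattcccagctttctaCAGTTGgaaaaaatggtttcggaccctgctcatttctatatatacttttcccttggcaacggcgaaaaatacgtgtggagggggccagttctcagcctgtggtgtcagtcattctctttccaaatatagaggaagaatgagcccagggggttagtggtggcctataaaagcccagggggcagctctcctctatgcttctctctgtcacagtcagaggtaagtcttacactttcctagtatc
Myh8: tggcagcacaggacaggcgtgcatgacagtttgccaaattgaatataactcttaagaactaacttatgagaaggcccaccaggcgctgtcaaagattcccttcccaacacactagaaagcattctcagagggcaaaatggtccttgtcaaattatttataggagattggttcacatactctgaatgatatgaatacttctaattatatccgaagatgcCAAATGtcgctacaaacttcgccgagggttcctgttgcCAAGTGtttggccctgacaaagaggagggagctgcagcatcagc
Myh7: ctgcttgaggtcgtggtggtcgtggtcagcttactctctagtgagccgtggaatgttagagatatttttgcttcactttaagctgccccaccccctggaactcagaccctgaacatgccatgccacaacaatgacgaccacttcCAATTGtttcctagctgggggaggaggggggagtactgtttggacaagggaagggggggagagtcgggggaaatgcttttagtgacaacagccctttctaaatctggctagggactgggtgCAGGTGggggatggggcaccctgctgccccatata
Myh7b: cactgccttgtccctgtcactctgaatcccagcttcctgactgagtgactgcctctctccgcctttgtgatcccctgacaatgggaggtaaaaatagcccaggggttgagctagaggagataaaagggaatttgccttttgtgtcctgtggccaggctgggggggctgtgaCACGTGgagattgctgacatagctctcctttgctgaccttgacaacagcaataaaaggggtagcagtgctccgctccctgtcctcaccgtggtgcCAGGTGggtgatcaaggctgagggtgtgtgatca
CANNTG was present in 72.3% of all promoters of that table, searched on both strands like every motif here. It occurred once in Myh3 and Myh6, in 2 places in Myh8, Myh13, Myh7 and Myh7b, in 3 in Myh4, and in none in Myh2 and Myh1. The TATA box letters TATAAA were found in 13.6% of promoters and in Myh3, Myh2, Myh1, Myh4, Myh8 and Myh6, and not in the windows of Myh13, Myh7 and Myh7b. The MEF2 site was found in 3.19% of promoters and in Myh1, Myh4 and Myh8, the CArG box of serum response factor in 1.63% and in Myh4 and Myh13, and the MCAT letters CATTCC in 14.7% and in Myh1, Myh4, Myh6 and Myh7. For Myh7 the CATTCC match is in the printed window, and a further RefSeq entry with its start at 54994549 lacks it. In Myh8 the only TATAAA match was read from the opposite strand and lay within its MEF2 site, so they are the same bases. Of the more specific E-boxes, CAGCTG (16.3%) was found in Myh4 and CACCTG (20.2%) in Myh7 and Myh7b; both are contained in CANNTG. Myh1 and Myh8 shared the longest run of any pair, 22 bases (tcaaattatttataggagattg), beginning 216 and 104 bases before their starts. In both genes this run contains the MEF2 site. These matches describe letters in these windows and show no binding.

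H3K4me3 was found at the promoters of 1 of the 9 members at day 0 (Myh13), 2 at day 1 (Myh3 and Myh13), 6 in myotubes (Myh3, Myh1, Myh4, Myh8, Myh7 and Myh7b) and 0 in reserve cells. Among all protein-coding genes 56.5%, 56.2%, 57.3% and 54.8% were marked in the same 4 libraries, and among all annotated genes 28.6%, 28.2%, 29.2% and 27.2%. Counted over gene bodies instead, a peak was found in 1 member (Myh13), 2 (Myh3 and Myh13), 7 (the 6 above and Myh2) and 2 (Myh3 and Myh13), beside 59.2%, 58.5%, 60.3% and 56.9% of protein-coding genes. From day 0 to myotubes 6 of the 8 unmarked members gained a peak, where 5.33% of unmarked protein-coding genes did, and from reserve cells to myotubes 6 of 9 gained against 7.09%. From day 0 to day 1 the gain was 1 of 8 against 1.72%, and from day 0 to reserve cells 0 of 8 against 1.38%. The marked member of day 0, Myh13, kept its call at day 1 (1.86% of marked genes lost theirs) and had none in myotubes (2.77% lost) or reserve cells (4.12% lost). A peak in myotubes and in no other library was found at 5 members, Myh1, Myh4, Myh8, Myh7 and Myh7b, and at 1.72% of protein-coding genes. Myh2 and Myh6 had no promoter peak in any library, as had 40.8% of protein-coding genes. With 1 library per state there is no replicate check of any of these differences, no test was possible, and the values are set side by side without a p-value.

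**Figure D1:**
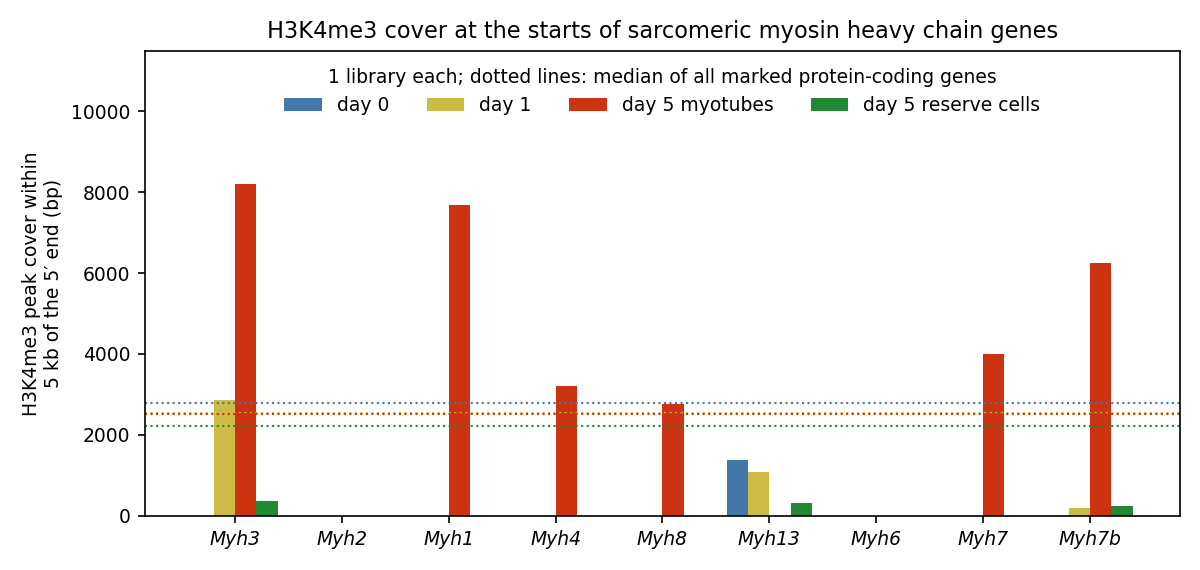
Bases covered by H3K4me3 peaks within 5 kb of the 5′ end of each member (vertical axis, bp), with 1 bar per library and dotted lines at the median of all marked protein-coding genes. In myotubes Myh3, Myh1 and Myh7b reached 8214, 7681 and 6260 bp, while Myh2 and Myh6 had 0 in every library. The myotube values of Myh3, Myh4, Myh7 and Myh7b include bases of separate upstream peaks, and that of Myh4 also those of a separate peak inside the gene.

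The lists themselves differed, and this touches every count. The H3K4me3 lists held between 15920 (reserve cells) and 26034 (myotubes) peaks, and the myotube peaks were shorter (median 1217 bp against 1729 to 1936 bp) and of lower fold enrichment (median 9.55 against 29.0 to 39.8). Fold enrichment is the authors' ratio of the fragments piled up at a peak's summit to the local background, and the pileups are small where the fold is low. The MBD2 lists held 14948, 452, 288 and 111 peaks from day 0 and day 1 to the myotubes and then the reserve cells. Since a library pools many cells, fewer marked cells and less mark per cell cannot be told apart. The labelled states were checked on markers: of 8 genes of differentiating muscle (Myog, Ckm, Acta1, Tnnt1, Tnnt3, Mymk, Mymx and Des) 1 was marked at day 0 and 8 in each later library, reserve cells included. Of 5 myoblast and satellite cell genes 5, 5, 4 and 5 were marked, the exception being Cd34 in myotubes, and of 5 proliferation genes 5, 5, 4 and 5, the exception being Ccnb2 in myotubes. Among the 4 cardiac markers Tnni3, Nppa and Myl7 had no promoter peak in any library, and Nkx2-5 had 1 at day 1 (fold 3.99) and in reserve cells (7.20). Of 3 smooth muscle markers 2, 1, 0 and 1 were marked, and of 3 fibroblast markers 2, 3, 2 and 3. Of 2 blood markers 0, 0, 1 and 0 were marked, and of 2 neuron markers 1 in each library. Day 1 and reserve cells had equal counts in every marker list, so these counts do not tell them apart.

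The developmental chains were both marked in myotubes, and Myh3 already at day 1. Myh3 (chromosome 11, 67078300 to 67102291, plus strand), the embryonic chain and the earliest to be made in differentiating muscle, had no H3K4me3 peak within its body at day 0. At day 1 it had 3, of 1249, 657 and 962 bp with folds of 5.60, 5.38 and 4.46, and only the longest reached the promoter (67078479 to 67079727, pileup 12, summit 283 bp downstream of the start in an intron). In myotubes 1 peak of 10192 bp (67075791 to 67085982, fold 29.5, pileup 70) ran from 2509 bp upstream to 7682 bp downstream of the start and contained all 3 day 1 peaks. In reserve cells a peak of 359 bp (67080181 to 67080539, fold 2.98) lay 1881 bp downstream of the start, inside the gene and outside the promoter. The share of the Myh3 body under H3K4me3 was therefore 0%, 12%, 34.1% and 1.5% over the 4 libraries, with reserve cells last. Of all myotube peaks, 0.25% were at least as long as the Myh3 peak and 29.4% had at least its fold, so it stood apart within that list by length more than by fold. The bases covered within 5 kb were 0, 2868, 8214 and 359, and 0.49% of marked protein-coding genes were at least as broad in myotubes. The printed Myh3 promoter lies wholly inside the myotube peak.

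Myh8 (67277124 to 67308634), the perinatal chain, carried a peak in myotubes alone. It was 2755 bp long (67277033 to 67279787, fold 8.10, pileup 17) and began 91 bp before the start, so only the last part of the printed promoter lies under it. Its summit was 1938 bp downstream of the start, within an exon. Of marked protein-coding genes in myotubes, 43.3% were at least as broad as Myh8. Myh3 and Myh8 thus shared a call in myotubes and differed in breadth, 8214 against 2755 bp within 5 kb.

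The 3 adult fast chains lie next to each other and had unlike marks in myotubes, and none of them had a peak at its promoter in the other 3 libraries. Myh2 (67171027 to 67197517) had no peak within 5 kb of its start in any library. The nearest myotube peak ended 6007 bp before it, and in the other libraries the nearest peak was between 89124 and 117074 bp away. The last 146 bp of the gene lay under the edge of the peak that begins there and covers the start of Myh1.

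Myh1 (67200052 to 67224575) carried a myotube peak of 10358 bp (67197372 to 67207729, fold 27.4, pileup 60), from 2680 bp upstream to 7677 bp downstream of its start. It filled the whole 2534 bp between Myh2 and Myh1. Of all myotube peaks 0.22% were at least as long, and 0.80% of marked protein-coding genes were at least as broad as its 7681 bp within 5 kb. The summit lay 1485 bp upstream of the Myh1 start, in an intron of 9430073C21Rik, an antisense noncoding gene whose own start is 818 bp upstream of that of Myh1. The peak therefore covered the starts of both genes, and the list assigns it to neither. Further myotube peaks of 1136 bp (fold 6.75) and 673 bp (4.95) followed inside Myh1, and in all 38.7% of its body was covered.

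Myh4 (67238029 to 67260446) had 3 separate peaks of low fold in myotubes. They were 374 bp (67236900 to 67237273, fold 4.98), 2105 bp (67237535 to 67239639, fold 4.10) and 732 bp (67240330 to 67241061, fold 4.98) long, with pileups of 11, 10 and 11. The longest covered the start and the printed promoter, and the 732 bp peak covered a later annotated start at 67240597. Myhas, an antisense noncoding gene that reaches back into the body of Myh1, starts 456 bp upstream of Myh4. The first and the longest of the 3 Myh4 peaks lie in the Myhas promoter window as well. Together the 3 peaks gave 3211 bp within 5 kb, and 33.2% of marked protein-coding genes were at least as broad. The order of the adult fast genes in myotubes by covered bases was Myh1, Myh4, Myh2 (7681, 3211 and 0 bp), and with 1 library the spread behind these values is unknown. When each library was limited to 15920 peaks, its strongest by −log10 q or by fold, none of the Myh4 peaks remained, and 5 members were marked in myotubes.

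Myh13 (67321658 to 67371586), the extraocular chain at the end of the cluster, had the reverse pattern. A peak of 1368 bp (67322453 to 67323820, fold 9.93, pileup 30) was called at day 0 and 1 of 1070 bp (67322551 to 67323620, fold 14.6, pileup 32) at day 1. Reserve cells had 323 bp (67323091 to 67323413, fold 4.32, pileup 8), and in myotubes the nearest peak was 41871 bp from the start. All 3 peaks lay in an intron and overlapped each other. They began 795, 893 and 1433 bp downstream of the first annotated start, so the day 0 and day 1 peaks reached into the promoter window and that of reserve cells did not. The day 0 and day 1 calls rest on the window: with 500 bp on either side of a start Myh13 was called in no library, and with 2 kb it was called at day 0, at day 1 and in reserve cells. In covered bases within 5 kb Myh13 had 1368, 1070, 0 and 323, which is at the low end of marked genes (88.2% were at least as broad at day 0). RefSeq places its start at 67327103, after these peaks, and so its promoter is not shown.

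**Figure D2:**
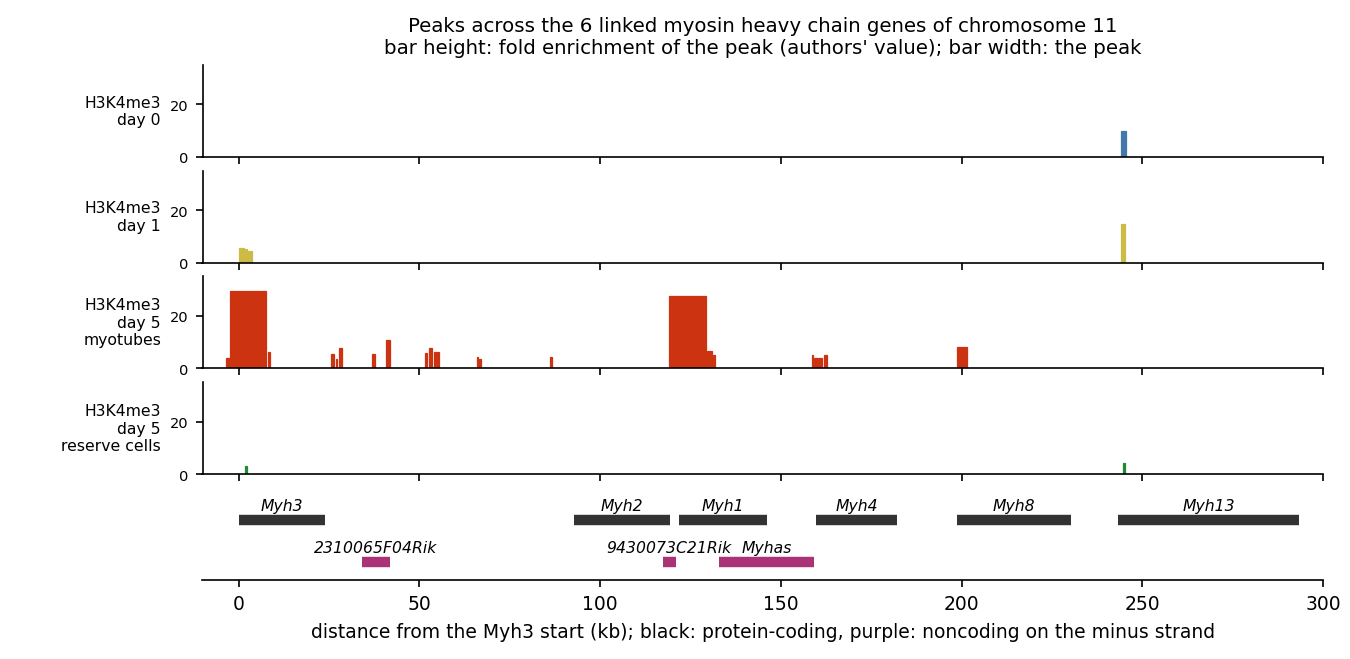
H3K4me3 peaks of the 4 libraries along the chromosome 11 cluster, by distance from the Myh3 start (horizontal axis, kb), with bar height as fold enrichment and bar width as the extent of the peak. From the first base of Myh3 to the last of Myh13 the myotube library has 20 peaks, with its broadest at Myh3 and Myh1, and day 0, day 1 and reserve cells have 1, 4 and 2. A further myotube peak of 704 bp, upstream of Myh3, is drawn and lies outside this count. Inside Myh13 a peak appears in each library but the myotube one.

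Across the whole chromosome 11 cluster, 293287 bp from the first base of Myh3 to the last of Myh13, H3K4me3 peaks covered 1368 bp at day 0, 3938 bp at day 1, 34241 bp in the myotube library and 682 bp in the reserve cell library. These are 0.466%, 1.34%, 11.7% and 0.233% of the cluster, beside 1.51%, 1.32%, 1.61% and 1.09% of the genome. Of the myotube total 22822 bp lay in gene bodies and 11419 bp between genes, and 59.0% lay in the bodies of Myh3 and Myh1 and the space before Myh1. The cover was uneven along the cluster: none of the 13023 bp between Myh8 and Myh13 was covered in any library, and of Myh13 itself none in myotubes.

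The 68735 bp between Myh3 and Myh2 hold no protein-coding start and carried 11 peaks in myotubes and 0 in each of the other 3 libraries. The 11 peaks were 261 to 1414 bp long with folds of 3.53 to 10.8 and covered 7926 bp, 11.5% of the space. The strongest (67119201 to 67120290, 1090 bp, fold 10.8) lay at the start of 2310065F04Rik, an annotated lincRNA on the minus strand. The other 10 were away from every annotated start by more than 1 kb, the longest at 67132431 to 67133844 (1414 bp, fold 6.11, summit 37859 bp upstream of Myh2). The peak nearest to Myh2 (67164471 to 67165020, 550 bp, fold 4.18) had its summit 6237 bp upstream of the start. The myotube list holds more weak peaks than the others. Of the 20 myotube peaks of the cluster 15 had a −log10 q of at least 5, and 8 were among the 15920 strongest myotube peaks. Of the 14 outside member promoters 10 and 5 remained under these limits.

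On chromosome 14 the 2 tandem genes differed. Myh7 (54970684 to 54994626, minus strand), the slow and beta cardiac chain, carried a peak of 2986 bp in myotubes alone (54992589 to 54995574, fold 11.7, pileup 26). It reached 948 bp upstream and 2037 bp downstream of the start, held the printed promoter, and had its summit 1011 bp downstream, in an untranslated exon. Between Myh7 and the upstream gene Ngdn, 4 further myotube peaks of 334 to 1003 bp and folds of 3.34 to 6.23 had their summits 2694 to 10458 bp upstream of Myh7, and no other library had a peak there besides that of Ngdn. These 4 were weak: their −log10 q ran from 2.66 to 8.44, below the lowest value (8.81) among the 15920 strongest myotube peaks. With the nearest of the 4 upstream peaks, Myh7 had 3989 bp within 5 kb in myotubes, and 20.2% of marked protein-coding genes were at least as broad. Myh6 (54941921 to 54966927, minus strand), the alpha cardiac chain, had no H3K4me3 or MBD2 peak in its body or promoter in any library. The nearest H3K4me3 peak was 25662 bp from its start in myotubes and 47324 to 47399 bp in the other 3. The 3756 bp between the genes had none either, and the microRNA genes inside them, Mir208a and Mir208b, and the antisense gene Mhrt were unmarked in all libraries.

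**Figure D3:**
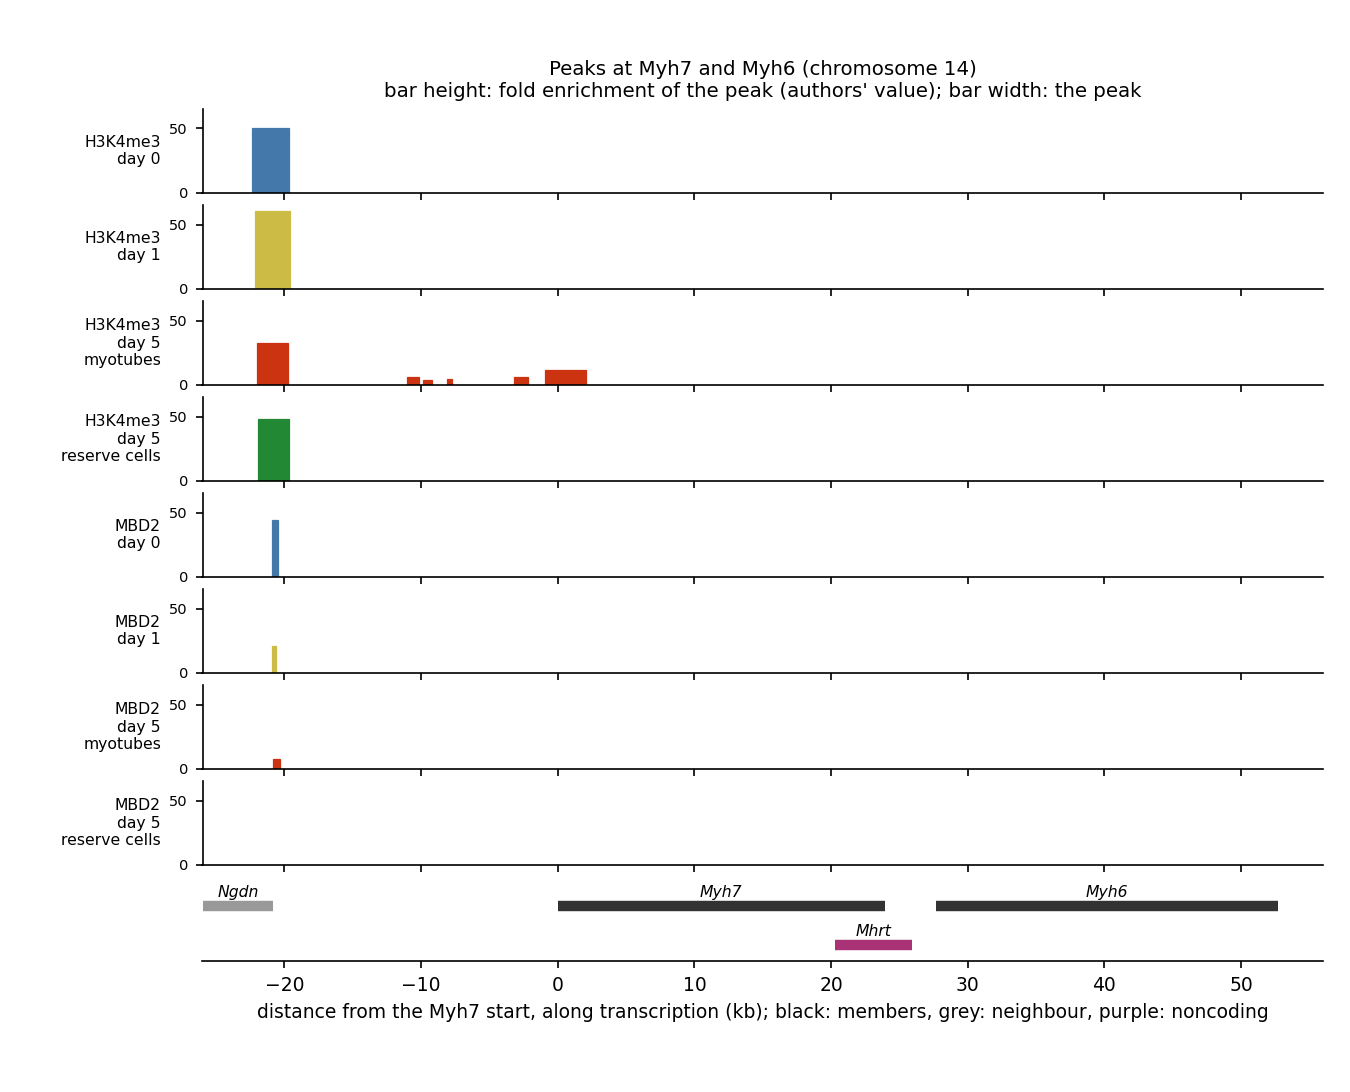
H3K4me3 and MBD2 peaks of the 8 libraries around Myh7 and Myh6, by distance from the Myh7 start along the direction of transcription (horizontal axis, kb), with bar height as fold enrichment. Peaks at and upstream of Myh7 appear in myotube H3K4me3 alone, those upstream with low folds (3.34 to 6.23), and Myh6 has none. The peaks at Ngdn, some 20 kb upstream, are present in all H3K4me3 libraries and in MBD2 of day 0, day 1 and myotubes.

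Myh7b (chromosome 2, 155611212 to 155634307, plus strand) had the highest fold of the members. Its myotube peak was 5182 bp long (155610742 to 155615923, fold 38.4, pileup 96), and 18.8% of myotube peaks had at least that fold. It ran from 470 bp upstream to 4711 bp downstream of the start, with the summit 2137 bp downstream in an intron, and covered 20.4% of the gene and the whole printed promoter. No other H3K4me3 library had a peak in the gene or its promoter. About 5 kb upstream, away from any annotated start, a separate H3K4me3 peak was called in 3 libraries: 244 bp with fold 3.43 at day 1, 2730 bp with fold 14.9 in myotubes (155604560 to 155607289) and 649 bp with fold 5.18 in reserve cells. Day 0 had none there. At this site day 1 and reserve cells had a peak while the Myh7b promoter had none. The day 1 call was weak, with a pileup of 9 and a −log10 q of 2.56, below the alternative limit of 5. Almost all day 1 peaks were at least as long and had at least its fold. The reserve cell peak had a pileup of 10 and a −log10 q of 5.44. Whether the upstream site gained the mark before the promoter was not tested. Within 5 kb of the start the covered bases were 0, 185, 6260 and 236, and 3.21% of marked protein-coding genes were at least as broad in myotubes. At day 1 and in reserve cells these bases are the edge of the upstream peak alone. In myotubes part of the upstream peak is added to the 5182 bp of the promoter peak.

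MBD2 was found at the promoter of none of the 9 members in any of the 4 libraries, where 11.1%, 0.998%, 0.62% and 0.251% of protein-coding genes carried it in the same 4 states, reserve cells last. At these shares a count of 0 among 9 genes is near the background, and the lists after day 0 are short. In the chromosome 11 cluster no MBD2 peak was called in any library, and the nearest to the Myh3 start was 805364 bp away at day 0. The single MBD2 peak inside a member lay in an intron of Myh7b at day 0. With 1 of 9 members holding MBD2 in the body, the share among protein-coding genes was 19% at day 0 and 0.989%, 0.679% and 0.26% in the later libraries, where no member had such a peak. The Myh7b peak was 232 bp long (fold 5.74, pileup 7, −log10 q 4.82), with its summit 13928 bp downstream of the start, and began 1960 bp after the end of Mir499. Its sequence (chr2:155624918-155625149, plus strand) is shown because MBD2 binds methylated CG, with each CG in capitals.
Myh7b intron: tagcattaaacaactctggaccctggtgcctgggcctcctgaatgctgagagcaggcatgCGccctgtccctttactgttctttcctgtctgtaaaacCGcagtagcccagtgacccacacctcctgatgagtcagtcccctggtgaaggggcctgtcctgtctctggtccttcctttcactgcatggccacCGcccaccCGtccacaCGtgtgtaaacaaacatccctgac
The 232 bases hold 5 CG, 2.16 per 100 bp, against a median of 1.24 over all day 0 MBD2 peaks, of which 23.9% were at least as dense. Methylation was not measured. The peak was gone from the list with a −log10 q of at least 5 and when 111 peaks were kept per library by −log10 q.

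**Figure D4:**
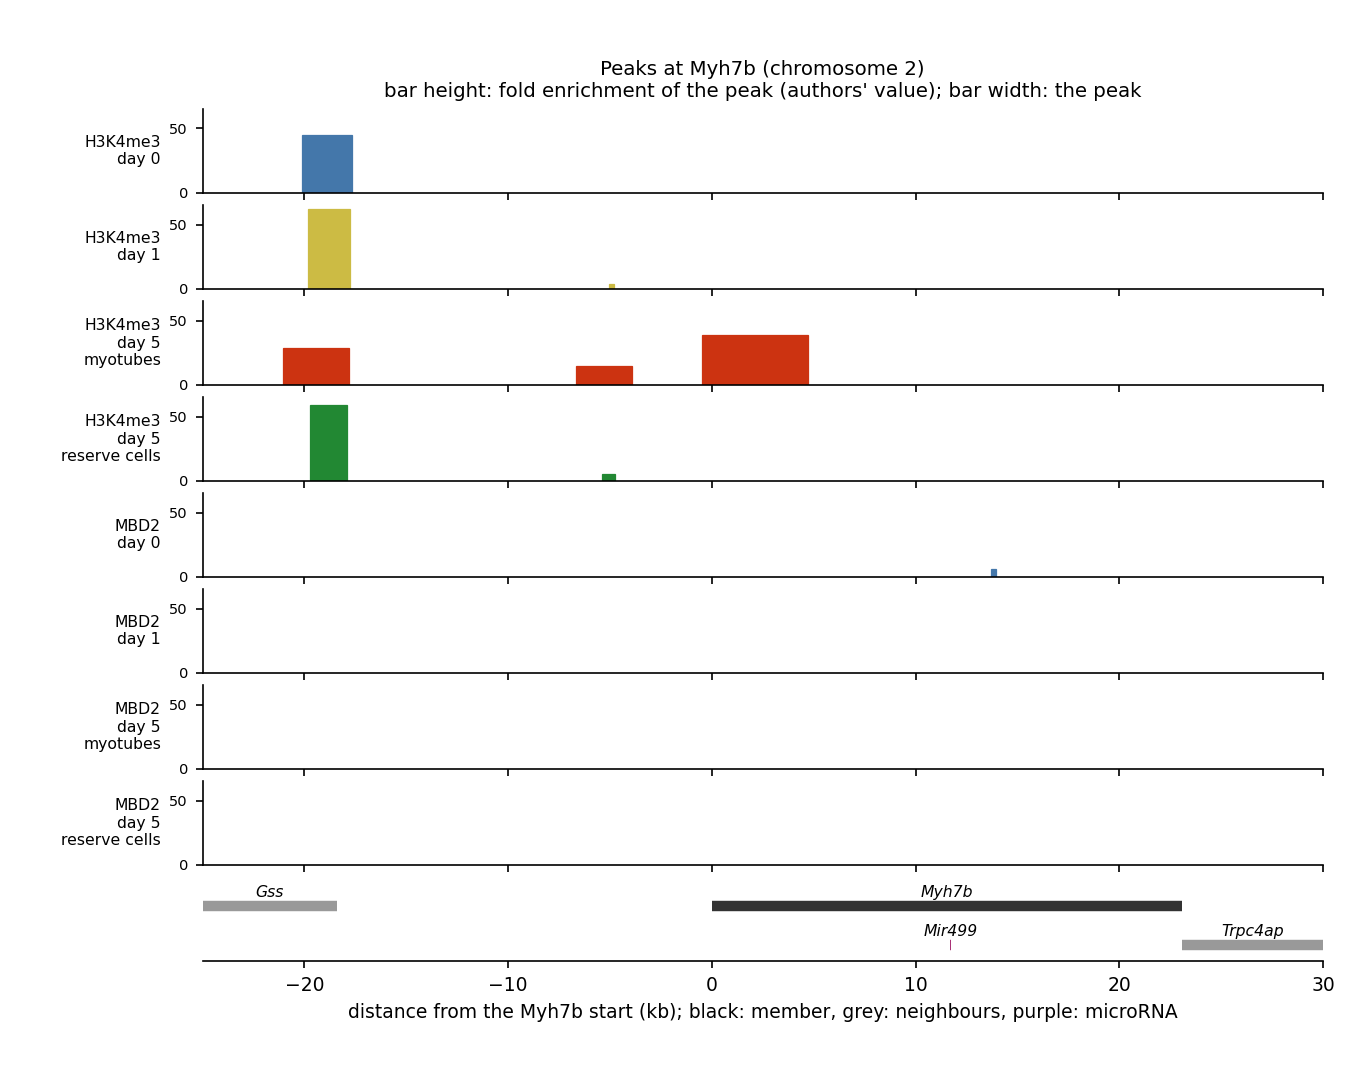
H3K4me3 and MBD2 peaks of the 8 libraries around Myh7b, by distance from its start (horizontal axis, kb), with bar height as fold enrichment. The promoter peak is seen in myotube H3K4me3 alone, the peak about 5 kb upstream in day 1, myotubes and reserve cells, and the single MBD2 peak, of 232 bp, in day 0.

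Promoters of the family were poor in CG, the substrate of DNA methylation. Within 1 kb of the 5′ end the members had between 0.70 (Myh7b) and 1.35 CG per 100 bp (Myh2, Myh4 and Myh7, with equal values). Their percentiles among protein-coding genes ran from 16.3% to 29.7%. The median was 3.05 over all protein-coding genes, 4.45 over the 11753 marked in all 4 H3K4me3 libraries, 1.00 over the 8941 marked in none and 2.05 over the 378 marked in myotubes alone. CG density did not separate the members by mark: unmarked Myh2 equalled marked Myh4 and Myh7, and Myh7b, with the highest fold, had the lowest density. In the 300 bases of the RefSeq promoters the number of CG ran from 1 (Myh4) to 9 (Myh2), beside a median of 7 over the table. The 20 myotube peaks of the cluster had a median of 1.30 CG per 100 bp (0.38 to 5.59), against 2.40 over all myotube peaks.

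**Figure D5:**
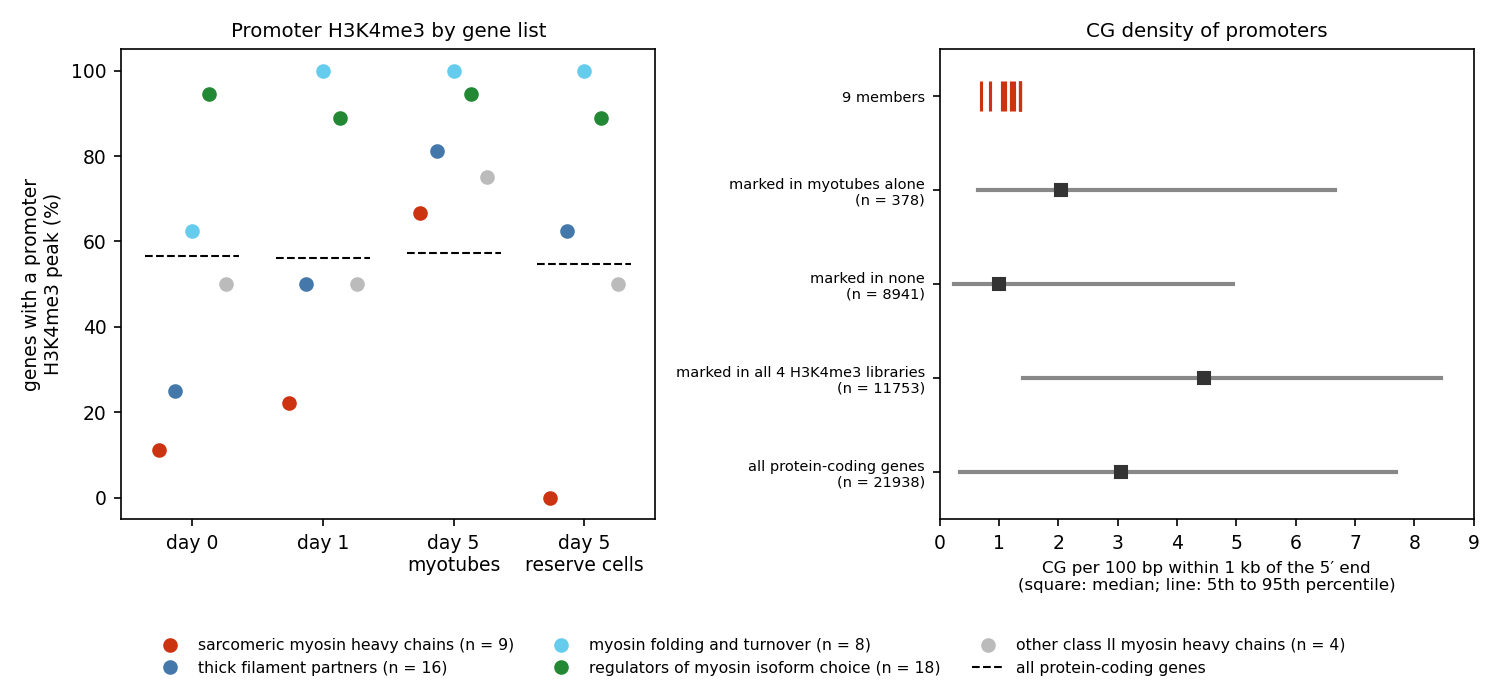
Left, share of genes with a promoter H3K4me3 peak (vertical axis, %) in each library for the sarcomeric myosin heavy chains and 4 gene lists, with dashes for all protein-coding genes; right, CG per 100 bp within 1 kb of the 5′ end for the 9 members (ticks) and 4 classes of genes. The myosin heavy chains stand at 1 of 9 for day 0, 6 of 9 for myotubes and 0 of 9 for reserve cells, while the folding and turnover genes are all marked from day 1 on, and all 9 members lie at or below 1.35 CG per 100 bp.

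Of 16 partners of the heavy chain (light chains, myosin-binding proteins, M-band proteins and titin among them) 4, 8, 13 and 10 were marked in the 4 libraries, taken in the same sequence as before. Large myotube folds were at Myom3 (63.4) and Myom2 (53.5), which crosslink thick filaments at the M-band, with Myl1 (43.6), the fast essential light chain. Of these, Myl1 and Myom3 were marked at day 1 (11 and 15.1), and all 3 in reserve cells (4.84 to 6.80). Myom2 had similar cover within 5 kb at day 1 (3094 bp) and in reserve cells (3016 bp), but at day 1 none of it reached the promoter window. Among the partners of slow or heart muscle, Myl3, Myl7 and Mybpc3 had no promoter peak in any library, Myl2 (fold 7.58) and Mybpc1 (7.27) had 1 in myotubes alone, and Myl4 was marked in all 4 (41.3 to 56.2). MBD2 was called at 1 of the 16, Mylpf, the fast regulatory light chain, at day 0 (fold 96.0), at day 1 (43.4) and in reserve cells (9.25). The list's median cover within 5 kb was 0, 2303.5, 4875 and 1611 bp, that of the heavy chains 0, 0, 3211 and 0 bp, and that of all protein-coding genes 1494.5, 1336, 1298 and 1058 bp.

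Of 8 genes for myosin folding and turnover 5 were marked at day 0 and 8 in each later library. The largest myotube folds were at Trim55 (84.1), Fbxo32 (62.5), Trim63 (56.7) and Trim54 (50.2), ubiquitin ligases or ligase subunits of muscle. Unc45b and Smyd1, a chaperone and a methyltransferase needed to assemble myosin, had no promoter peak at day 0 and folds of 7.53 and 7.61 at day 1, 36 and 41.4 in myotubes and 6.72 and 5.65 in reserve cells.

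Of 18 regulators of isoform choice 17, 16, 17 and 16 were marked, most of them throughout. Mef2d (66.1), Six4 (63.5) and Tead4 (62.1), transcription factors that act at muscle promoters, had high folds in myotubes. The 2 whose call varied were Sox6, a repressor of slow genes, marked at day 0 alone (8.01), and Thrb, a thyroid hormone receptor, marked in myotubes alone (6.70). The Sox6 call rests on the promoter window. Its cover within 5 kb of the 5′ end was 730, 602, 502 and 0 bp, reserve cells last, so at day 1 and in myotubes the peaks lay outside that window. MBD2 was called at day 0 at promoters that included those of Six4 (5.02), Mafa (10.3) and Rcan1 (8.61), and at no regulator later. Of the 4 other class II myosin heavy chains, those of nonmuscle and smooth muscle cells, Myh9 (106.6, 117.9, 59.6 and 29.6) and Myh10 (46.0, 102.0, 78.7 and 113.1) were marked in all libraries. Myh14 was marked in myotubes alone (7.48), and Myh11, the smooth muscle chain, in none. Myh9 also carried MBD2 at day 0 (25.9) and day 1 (5.97).

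Sco1 and Adprm, next to Myh3, share a promoter that was marked in all 4 libraries (folds 49.4, 109.0, 56.5 and 97.0), and on the far side Gas7 was marked at day 0, at day 1 and in reserve cells (6.07, 6.65 and 6.59) and Glp2r in none. Ngdn and Zfhx2, upstream of Myh7, were marked throughout, while Cmtm5 and Il25, beyond Myh6, were not. Ngdn also carried MBD2 at day 0 (44.1), day 1 (20.7) and in myotubes (7.5), with Zfhx2 at day 0 (11). Gss, Acss2, Trpc4ap and Edem2 around Myh7b were marked throughout, and Acss2 carried MBD2 at day 0 (5.50). Of the 14 genes annotated inside or between the members, Trpc4ap overlaps the end of Myh7b and was marked throughout. The noncoding 2310065F04Rik, 9430073C21Rik and Myhas were marked in myotubes alone (10.8, 27.4 and 4.98), the latter 2 by peaks they share with Myh1 and Myh4. The remaining 10 had no promoter peak.

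Genes with the most similar H3K4me3 cover were found by the distance between log2(bases within 5 kb + 100) over the 4 H3K4me3 libraries, among all protein-coding genes, as a description. For Myh3 the nearest were Actc1 (distance 0.66), the cardiac α-actin that embryonic skeletal muscle also makes, with 0, 3179, 9680 and 597 bp, then Myl1 (0.75) and Smim5 (1.20). For Myh7b they were Hspb3 (1.08), a small heat shock protein of muscle, Usp2 (1.23) and Mypn (1.55), a Z-disc protein. The day 1 and reserve cell cover of Myh7b used here is the edge of its upstream peak, cut by the 5 kb limit. For Myh13 they were Mgst1 (0.49; 1538, 1162, 0 and 477 bp), Vmn1r35 (0.71) and Adamts9 (0.75). The other marked members have 0 in 3 libraries, so their likeness rests on the myotube value alone: Mef2c, Hephl1 and Cacng6 for Myh1, B3galt2, Myl2 and 3425401B19Rik for Myh4, Kcnj11, 1700016D06Rik and Galnt6 for Myh8, and Tnfrsf19, Lrrc30 and Isx for Myh7. Mef2c enters with the cover around its 5′-most start, and at another of its starts it was marked in all 4 libraries.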

How the data were processed

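CUT&RUN peak lists of 8 libraries (MBD2 and H3K4me3 in 4 states) were used; the IgG libraries were not analysed here. The authors trimmed reads with Trim Galore, aligned them to mm10 with Bowtie2, filtered with SAMtools and called peaks per library with MACS2, per the submitters' processing notes; versions, settings and the control used are unknown here (not given in the sources used here), as is whether the later filtering named in the design text had been applied. The deposited pileup is a signal of fragments over the summit, and the deposited fold enrichment is a ratio to local background, per the file headers. The 2 deposited columns of −log10 values, of the p-value and of the q-value, had damaged names and were recognised by their place in the MACS2 layout. Read totals are unknown. The lowest local background in each list, from pileup and fold, was 1.08 to 1.47 fragments per base for H3K4me3 and 0.360, 0.286, 0.776 and 0.947 for the 4 MBD2 lists, reserve cells last.

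Peaks on autosomes 1 to 19 and the sex chromosomes were joined to GENCODE M21 basic genes with Python 3.11.15, pandas 2.3.3 and NumPy 2.4.6, and the overlap code was tested on simulated peaks. A gain is no promoter peak in the first library and at least 1 in the second. RefSeq promoters of the members equalled the genome sequence in 10 of 10 entries. Members, lists and windows were chosen with earlier results of these data known. Named are all members, up to 4 genes per list with the highest myotube fold, neighbours on each side and the 3 nearest patterns per member; Unc45b and Smyd1 and the regulators with a varying call or MBD2 were named after their values were seen, as were Myl2, Myl3, Myl4, Myl7, Mybpc1, Mybpc3, Mylpf, Cd34 and Ccnb2. The results of 2 genes that the rule takes are not reported here. Alternatives were promoter windows of 500 bp and 2 kb, the 5′-most start, an overlap of at least 100 bp, a −log10 q of at least 5, equal numbers of peaks per library and, added after seeing the data, the comprehensive annotation.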

Additional observations from a re-analysis of the deposited data

How the results depend on the processing

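Of 144 values under alternative settings for 24 counts and lengths, 133 stayed within 1.5 times the reported value and 11 moved. Some of the 133 could not have moved. Settings that only drop peaks or narrow the window leave a count of 0 marked members or 0 peaks at 0. The equal-number limits were set by the reserve cell lists, so they left those lists unchanged. With 500 bp on either side of a start, members marked at day 0 fell from 1 to 0 and at day 1 from 2 to 1, and losses of promoter H3K4me3 from day 0 to myotubes and from day 0 to reserve cells were 0 in place of 1. With 2 kb, 2 members (Myh3 and Myh13) were marked in reserve cells in place of 0, gains from day 0 to reserve cells were 1 (Myh3), losses from day 0 to reserve cells 0 and losses from reserve cells to myotubes 1 (Myh13); here and with 500 bp, each change comes from a peak of Myh13 or Myh3 that begins 795 to 1881 bp downstream of the gene's first start. With a −log10 q of at least 5, reserve cells had 0 bp of H3K4me3 in the cluster in place of 682, and day 0 had 0 MBD2 peaks in the members in place of 1, as it had with 111 peaks kept per library by −log10 q. Members marked in myotubes numbered 5 or 6 throughout, and the myotube cluster cover 25251 to 34241 bp. With the comprehensive annotation 0 of 16 values moved. No paired analysis was possible because each state has 1 library. Read depth is unknown, which limits what can be said of peaks with low pileup.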
